A study of Mus musculus with 6 samples.

Results

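The genes described here are 5 S100 genes (S100a4, S100a6, S100a10, S100a11 and S100a13) and 5 annexin genes (Anxa1, Anxa2, Anxa4, Anxa5 and Anxa6), followed in regulatory T cells (Tregs) of the mouse. They were taken by symbol from a table of array values, with the row of the highest mean over the arrays where a gene had more than 1 row. All 10 were found among 19937 named genes, and all 10 passed the filter on low values that left 15037 genes. The row of each gene was chosen by its mean level. The set itself was put together with the differences between the groups known. Its counts, the opposite direction of Anxa1 and the members' p-values, which say where a gene stands in the fit over all genes, therefore describe these arrays and are no independent evidence.

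S100 proteins are small calcium-binding proteins with a pair of EF-hand motifs, most of which work as dimers. Annexins bind negatively charged membrane phospholipids when calcium is present. The families meet in complexes such as that of S100a10 with annexin A2 and that of S100a11 with annexin A1, which join membranes to the cytoskeleton. In T cells several of these genes are known for higher expression in effector and memory cells than in naive cells.

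Total peripheral T cells of wild-type mice had been given to CD3ε-/- hosts, mice without T cells that keep B cells, NK cells and myeloid cells. One group of hosts carried MHC class II, through which CD4+ T cells see antigen (MHC II-competent), and the other lacked it (MHC II-deficient). After 5 days CD4+ TCRβ+ CD25+ cells were enriched on magnetic beads, sorted, and their RNA (100 ng) was put on Affymetrix arrays, 3 per group. The labels give C57BL/6, 6 to 8 weeks of age, lymph nodes and spleen, and replicates that are biological and numbered 1 to 3. Whether each replicate is a single host or a pool is not given. P-values rest on the spread between the 3 preparations of a group, whatever they are, drawn by limma toward that of all tested genes. The test had 9.4 degrees of freedom, 4 of them from the arrays. Values are log2 intensities after robust multi-array averaging, and a difference is the deficient mean minus the competent mean. A gene is called where limma's adjusted p over all 15037 genes is under 0.05. A level of 1 gene is not set against that of another, since rows differ in their probes.

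Of all tested genes 507 (3.37%) were called, 306 lower (2.03%) and 201 higher (1.34%) in the MHC II-deficient group. With quantile normalization the split was 230 lower and 230 higher, and with median centring 297 lower and 127 higher. In the fit as reported, 1661 lower and 1181 higher of the 15037 genes had an unadjusted p under 0.05. Transcripts of the labelled identity were present in every array. All 9 tested CD4 T cell and Treg markers lay far above the filter value of 5.205, and their mean was 11.07 to 11.23 in the competent and 10.98 to 11.04 in the deficient arrays. Foxp3 stood at 9.82 ± 0.05 and 9.77 ± 0.09 (SD, n = 3), Cd3e at 11.19 and 11.12, Cd4 at 10.47 and 10.39 and Il2ra, which encodes CD25, at 11.39 and 11.12. All 9 differences were below 0 (46% of all tested genes), and 5 of the 9 lay below without overlap (12.9% of all). Limma called 0 of the 9, and 3, all lower, had an unadjusted p under 0.05. Of 19 myeloid and dendritic cell markers 17 lay higher in the deficient group, among them Lyz2 (5.81 against 6.52), and 1, the macrophage gene Adgre1 (log2 difference 1.39, SE 0.29), had an adjusted p under the threshold (0.035). Tyrobp had the largest increase of this list (7.62 against 9.13, limma's adjusted p = 0.085). An unadjusted p under 0.05 was found for 15 higher and 2 lower of the 19. Without overlap, 7 lay above and 2 below, beside 11.4% and 12.9% of all tested genes. Adgre1 lost its call without any array but deficient 3 (0.054 to 0.11), with median centring (0.065), a trended robust prior (0.060) or quantile normalization (0.058), and with the mean of the markers, itself included, as a covariate (0.27, log2 difference 0.50). Their mean was 6.34 to 7.25 in the competent and 7.18 to 7.92 in the deficient arrays. The mean of 5 CD8 T and NK cell markers was 7.33 to 7.50 and 7.65 to 7.77. All 5 were higher, limma called 0, and 3 had an unadjusted p under 0.05. Cd8a stood at 5.80 and 6.12, Eomes at 6.75 and 7.08 and Prf1 at 7.30 and 7.43. Nkg7 was at 9.61 and 10.02 and Cd8b1 at 7.63 and 7.89. Without overlap, 1 lay above, Cd8b1, beside 11.4% of all tested genes. Ncr1 and Klrb1c were under the filter. The marker means of B cells (4 tested, 5.95 to 6.18 against 6.09 to 6.15), granulocytes (4 tested, 5.33 to 5.56 against 5.46 to 5.63) and erythroid cells with platelets (2 tested, 6.07 to 6.48 against 6.45 to 6.68) overlapped between the groups.

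In the cells from MHC II-deficient recipients S100a4 and S100a10 fell and Anxa1 rose. S100a4 was 1.73-fold lower, S100a10 1.33-fold lower and Anxa1 2.50-fold higher, with 3 arrays per group. All 5 S100 genes lay lower in every deficient array than in any competent array. Of the 4 annexins other than Anxa1, Anxa5 did so too, and Anxa2, Anxa4 and Anxa6 overlapped between the groups. Called members thus numbered 2 of 10 lower and 1 of 10 higher, beside 2.03% and 1.34% of all tested genes. The groups did not overlap for 7 of 10 members, beside 24.3% of all tested genes: 6 lay below (12.9% of all) and 1 above (11.4% of all). Of the 10 members 9 had a difference below 0, and their median was -0.28, while 46.0% of all tested genes lay below 0 with a median of 0.02. As the arrays measure RNA of the whole sort, fewer cells with a transcript and less of it per cell cannot be told apart.

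**Figure D1:**
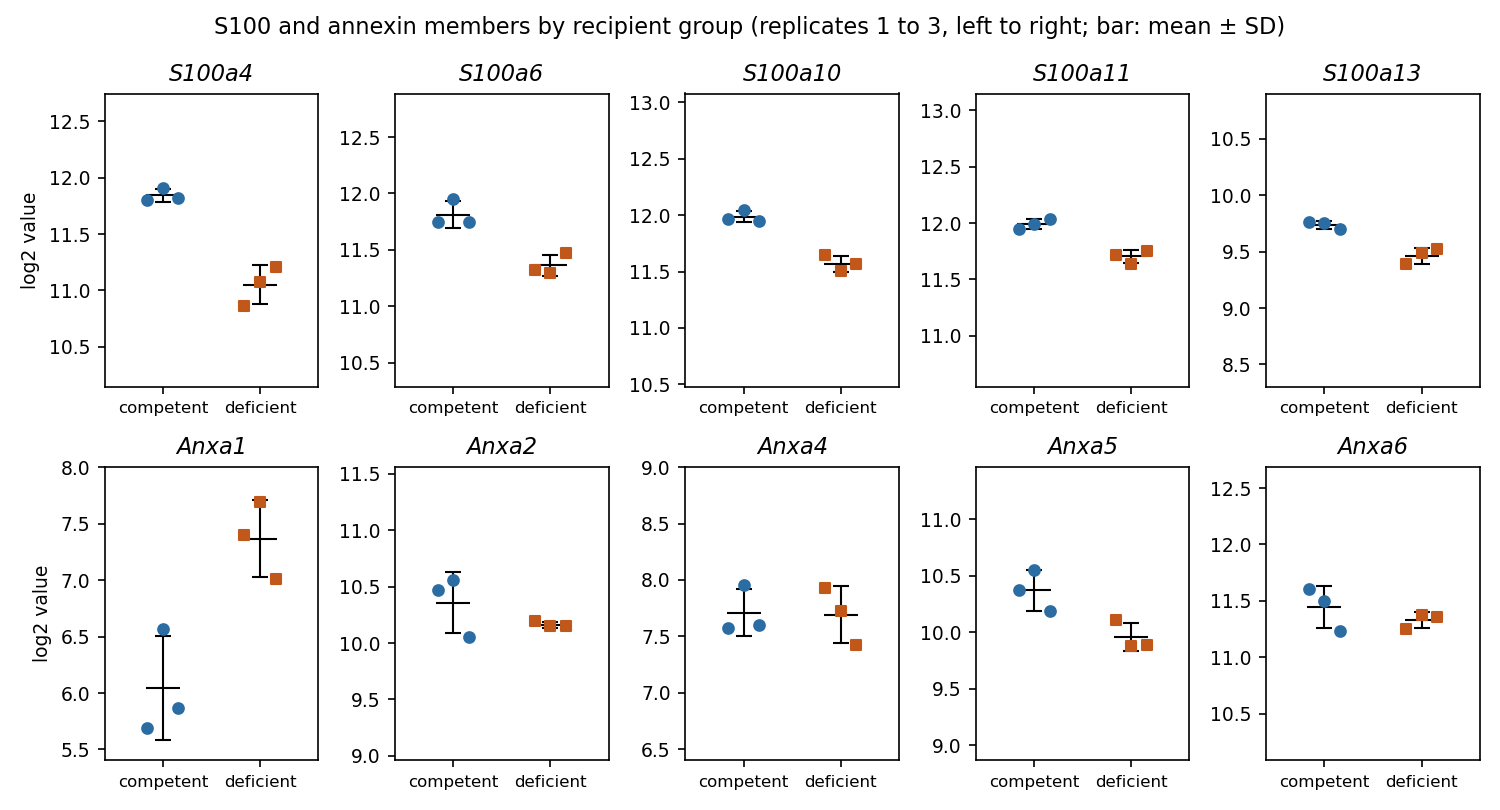
Log2 value (vertical axis, a span of equal height in every panel) of the 10 members in the 3 MHC II-competent (blue circles) and 3 MHC II-deficient (orange squares) arrays, with the mean and SD. The 5 S100 genes separate downward, Anxa1 separates upward from 6.04 to 7.37, and Anxa2, Anxa4 and Anxa6 overlap.

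S100a4 encodes a protein that binds nonmuscle myosin IIA and is linked to cell motility. Its log2 value (row 10493812) was 11.80, 11.91 and 11.82 in competent 1 to 3 and 10.87, 11.07 and 11.21 in deficient 1 to 3. The competent arrays lay close together and the deficient arrays were all lower and more spread, with SDs of 0.06 and 0.17 (n = 3). S100a4 fell by 0.79 on the log2 scale (SE 0.11, 95% interval -1.04 to -0.54, adjusted p = 0.0066). Over all tested genes, 94 had a more negative difference. The call held without each single array (adjusted p 0.012 to 0.041). It was lost with the mean of the myeloid markers as a covariate, where the difference was -0.70, the SE 0.17 and the adjusted p = 0.11.

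S100a6, calcyclin, and S100a4 are near neighbours on chromosome 3. S100a6 (row 10493820) stood at 11.74, 11.95 and 11.74 in the competent and at 11.32, 11.29 and 11.47 in the deficient arrays. Every deficient array lay below every competent one. The difference of -0.45 (SE 0.10, 95% interval -0.68 to -0.22) had an adjusted p = 0.0502 in limma's test, just outside the threshold. It ran from 0.012 to 0.22 over the alternatives and was under 0.05 in 4 of the 9 other settings and in 1 of 6 with an array left out, that without competent 3.

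S100a10, also called p11, binds the N-terminus of annexin A2 and, unlike its relatives, does not bind calcium. It (row 10493995) was at 11.97, 12.04 and 11.95 in the competent and 11.65, 11.50 and 11.56 in the deficient arrays. Again the groups were apart, with SDs of 0.05 and 0.07 (n = 3). It fell by 0.42 (SE 0.09, 95% interval -0.62 to -0.21, adjusted p = 0.045). The size moved little, from -0.45 to -0.38 with 1 array left out, but the call held only without competent 3 (adjusted p 0.049) and was lost without each of the other 5 arrays (highest 0.17). It was also lost with quantile normalization (0.065), the replicate block (0.083) and the myeloid covariate (0.17, difference -0.48).

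S100a11, calgizzarin, has an annexin partner in annexin A1. It is represented on the array by 2 rows. In row 10493990, the one used, it was at 11.95, 11.99 and 12.04 in the competent and 11.72, 11.64 and 11.76 in the deficient arrays. In row 10457640 it was at 10.60, 10.59 and 10.60 against 10.13, 9.97 and 10.05. Both rows separated the groups, with differences of -0.29 (SE 0.09, adjusted p = 0.13) and -0.55. The platform pairs both rows with the same transcripts, and which of them measures S100a11 alone is not given. With the mean of both rows the difference was -0.42 and passed the threshold (adjusted p = 0.039), as it did with the trended robust prior (0.026). These were the 2 of 9 other settings in which it passed (highest adjusted p 0.45). It passed in 0 of 6 fits with an array left out (0.15 to 0.35).

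S100a13, which takes part in the export of proteins that lack a signal peptide, was at 9.76, 9.76 and 9.70 in the competent and 9.39, 9.49 and 9.52 in the deficient arrays (row 10493789). The groups were apart, by a smaller gap than in the other S100 members. The difference of -0.27 (SE 0.09, 95% interval -0.48 to -0.07) did not pass (adjusted p = 0.15), under any of the 15 alternatives (0.10 to 0.42).

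Anxa1 is the annexin with the known anti-inflammatory role: it is induced by glucocorticoids, and its protein acts on formyl peptide receptors of myeloid cells. Its row (10466606) stood at 5.69, 6.57 and 5.87 in the competent and at 7.40, 7.69 and 7.01 in the deficient arrays. In competent 1 and competent 3 it lay under the median of all rows of the array (6.18 and 6.22). Signal over background is unknown there. The lowest deficient array, deficient 3, lay above the highest competent one, competent 2, by less than the distance between competent 1 and 2. Anxa1 rose by a log2 difference of 1.32 (SE 0.23, 95% interval 0.80 to 1.85, adjusted p = 0.019), and 33 tested genes had a larger increase. The call was lost without competent 1 (log2 1.15, adjusted p = 0.058), deficient 1 (1.31, 0.076) or deficient 2 (1.16, 0.063). The SD within the groups, 0.46 and 0.34 (n = 3), was the widest of the 10 members.

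Myeloid markers moved with Anxa1. Competent 2 was the highest competent array and deficient 3 the lowest deficient array both for Anxa1 and for the mean of the 19 myeloid markers, which was 6.91, 7.25 and 6.34 in competent 1 to 3 and 7.92, 7.72 and 7.18 in deficient 1 to 3. The order of the other arrays differed: competent 3 was lowest for the marker mean and competent 1 for Anxa1, and deficient 1 was highest for the mean and deficient 2 for Anxa1. With the marker mean as a covariate the log2 difference of Anxa1 was 0.81 (SE 0.27, adjusted p = 0.21), with 3 residual degrees of freedom. Anxa1 itself is not among the 19 markers, and the part of the myeloid markers in its difference was not tested.

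**Figure D2:**
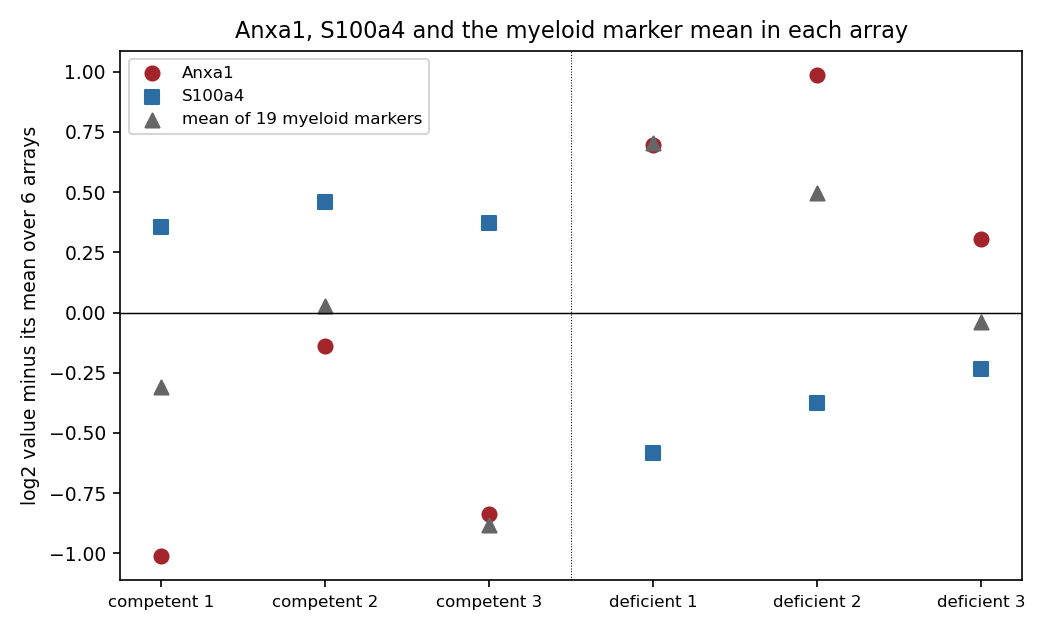
Log2 value minus its mean over the 6 arrays (vertical axis) for Anxa1 (red circles), S100a4 (blue squares) and the mean of 19 myeloid markers (grey triangles) in each array. Anxa1 lies above its mean in the 3 deficient arrays and S100a4 below it, and competent 2 and deficient 3 are the arrays in which the groups come closest for Anxa1.

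Anxa2, the partner of S100a10, overlapped between the groups. It was at 10.47, 10.56 and 10.05 in the competent and 10.20, 10.15 and 10.15 in the deficient arrays (row 10586744). Competent 3 lay below all deficient arrays and the other competent arrays above them. The difference was -0.20 (SE 0.13, 95% interval -0.50 to 0.10, adjusted p = 0.48). Without competent 3 it was -0.35 (adjusted p = 0.081), and with the myeloid covariate -0.47 (0.23).

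Anxa5, whose protein is the reagent that marks phosphatidylserine on dying cells, was at 10.37, 10.56 and 10.19 in the competent and 10.11, 9.88 and 9.89 in the deficient arrays (row 10497817). The groups did not overlap, with deficient 1 close to competent 3. The difference of -0.41 (SE 0.12, 95% interval -0.69 to -0.14) did not pass (adjusted p = 0.10). It did so without competent 3 (-0.51, adjusted p = 0.048), and with the myeloid covariate it was -0.67 (adjusted p = 0.095).

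Anxa4 and Anxa6 also overlapped and did not pass. Anxa4, an annexin best known from secretory epithelia, ranged from 7.58 to 7.95 in the competent and from 7.42 to 7.93 in the deficient arrays (difference -0.02, SE 0.15, 95% interval -0.36 to 0.32). Its sign turned in 4 alternatives, and it was -0.38 with the myeloid covariate. Anxa6, which has a doubled set of annexin repeats, ranged from 11.23 to 11.60 and from 11.25 to 11.38 (-0.11, SE 0.11, 95% interval -0.37 to 0.14). Its other row, paired with 1 transcript, lay the other way (0.20), and the mean of both rows was 0.044 higher in the deficient group.

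**Figure D3:**
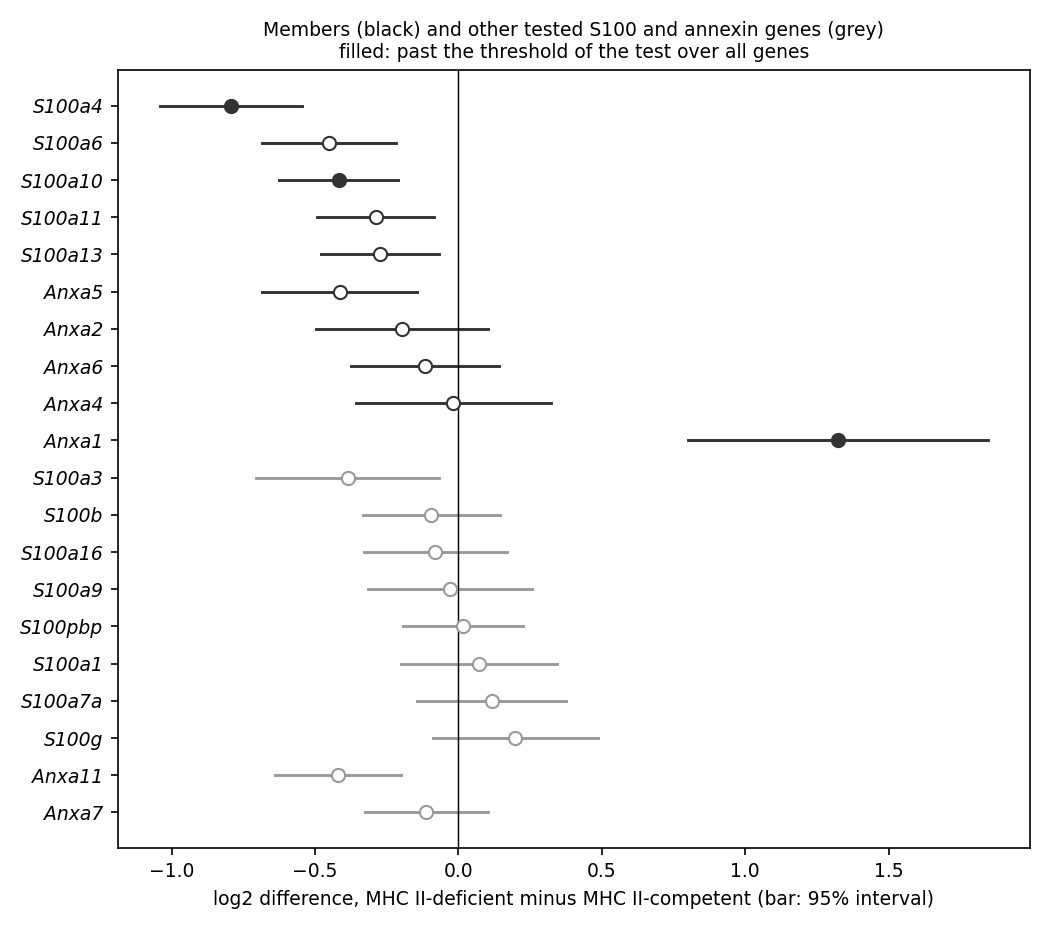
Log2 difference with its 95% interval (horizontal axis) for the 10 members (black) and the other tested S100 and annexin genes (grey), filled where past the threshold. Filled points are S100a4, S100a10 and Anxa1, and Anxa1 is the one member right of 0.

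In competent 2 and competent 3 most members deviated to the same side, and in the other arrays they did not. In competent 2 S100a11 lay at its group mean and the other 9 members above theirs, with a median deviation of 0.10, and in competent 3 only S100a11 lay above, with a median of -0.09. The deviation of all tested genes in these arrays had medians of -0.03 and 0.01. The S100 members had a within-group SD of 0.05 to 0.13 and the annexin members of 0.14 to 0.41, beside a median of 0.14 over all tested genes. The difference of Anxa1 exceeded that of S100a4 by 2.12 and that of Anxa2 by 1.52 on the log2 scale. The Anxa1 value relative to each of the other 9 members did not overlap between the groups, which describes a pair of directions known when the set was made.

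No tested gene of the rest of both families passed. The lowest difference was that of S100a2 (-0.75, SE 0.22, adjusted p = 0.11), which was not on the list and was named after its values were seen. Of 12 further S100 genes on the list 8 were tested, and limma called 0, with 1 at an unadjusted p under 0.05 (S100a3). Their differences ran from -0.39 (S100a3, SE 0.14, adjusted p = 0.18) to 0.20 (S100g, SE 0.13), with a median of -0.01. The others were S100a1 (0.07), S100a7a (0.12), S100a9 (-0.03), S100a16 (-0.08), S100b (-0.09) and S100pbp (0.02), which encodes a binding partner of an S100 protein rather than a member of the family. S100a5, S100a8, S100a14 and S100z lay under the filter. S100a8 and S100a9 encode calprotectin of granulocytes and monocytes, and stood at 4.46 and 5.32 in the competent and 4.54 and 5.29 in the deficient group, under and just over the filter. Of 7 further annexins 2 were tested and limma called 0, with 1 at an unadjusted p under 0.05. Anxa11, which binds the calcium sensor Pdcd6, was at 6.89, 6.72 and 6.91 against 6.47, 6.35 and 6.44 (difference -0.42, SE 0.10, adjusted p = 0.051), and Anxa7 differed by -0.11 (SE 0.10, adjusted p = 0.58).

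The S100 genes of chromosome 3 stand in a row, and their differences were read in the order of the GRCm38.p6 annotation, used for order only. S100a1, S100a13, S100a14, S100a16, S100a3, S100a2, S100a4, S100a5, S100a6, S100a7a, S100a8 and S100a9 follow each other with no other protein-coding gene between them, and S100a11 and S100a10 are neighbours farther along. S100a4 and S100a6 (-0.79 and -0.45) enclose S100a5, which is under the filter (5.23 and 5.13). On the other side of S100a4 lies S100a2 (-0.75), whose groups overlapped, followed by S100a3 (-0.39). S100a1, beside S100a13 (-0.27), and S100a7a, beside S100a6, lay slightly higher in the deficient group.

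**Figure D4:**
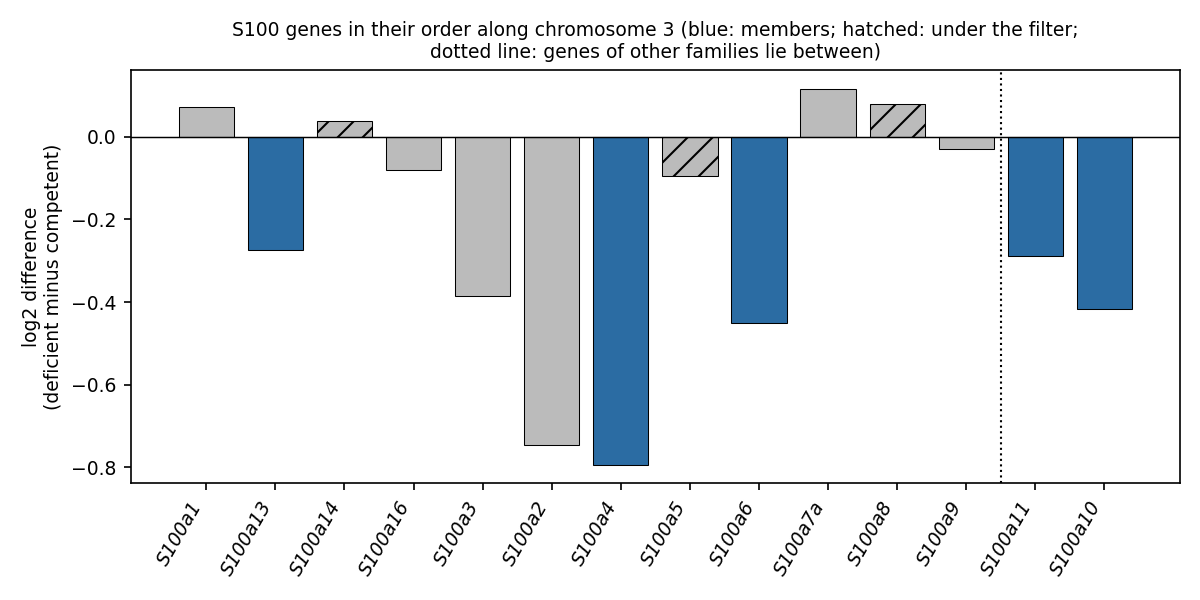
Log2 difference (vertical axis) of 14 S100 genes in their order along chromosome 3, with the members in blue, genes under the filter hatched and a dotted line where other genes intervene. S100a4 (-0.79), S100a2 (-0.75), S100a6 (-0.45), S100a10 (-0.42) and S100a3 (-0.39) have the lowest values, and S100a5, between S100a4 and S100a6, is at -0.09.

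The 250 bases before the start site, from RefSeq promoters of GRCm38.p6, were found for 8 of the 10 members, not for S100a10 and Anxa6. They are shown for S100a4 and Anxa1, the members with the largest change in each direction, and for Anxa2, which overlapped between the groups. Capitals mark matches to TATAAA and to the AP-1 motif TGANTCA, on either strand. They lie at chr3:90603520-90603769 (plus strand), chr19:20390672-20390921 (minus strand) and chr9:69453433-69453682 (plus strand).
S100a4: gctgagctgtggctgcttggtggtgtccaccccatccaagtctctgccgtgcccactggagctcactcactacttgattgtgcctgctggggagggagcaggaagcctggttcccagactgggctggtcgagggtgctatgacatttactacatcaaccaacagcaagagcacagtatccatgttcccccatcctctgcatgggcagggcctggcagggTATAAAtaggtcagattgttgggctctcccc
Anxa1: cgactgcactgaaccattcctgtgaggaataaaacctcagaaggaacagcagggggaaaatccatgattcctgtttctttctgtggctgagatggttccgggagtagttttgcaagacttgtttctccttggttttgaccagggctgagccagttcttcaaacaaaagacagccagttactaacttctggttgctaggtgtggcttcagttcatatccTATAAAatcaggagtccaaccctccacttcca
Anxa2: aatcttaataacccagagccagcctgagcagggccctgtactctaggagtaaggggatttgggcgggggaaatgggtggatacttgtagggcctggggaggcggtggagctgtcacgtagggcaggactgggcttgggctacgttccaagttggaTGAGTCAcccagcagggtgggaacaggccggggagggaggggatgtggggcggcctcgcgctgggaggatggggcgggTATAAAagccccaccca
All 3 windows hold TATAAA, which starts 31 bases before the start site in S100a4, 32 in Anxa1 and 17 in Anxa2, and which 12.4% of 32841 windows of this length hold. TGANTCA was found in Anxa2 and S100a11 and in 6.75% of all windows. CCAAT was found in S100a6 (33.9% of windows). The STAT motif TTCNNNGAA (7.02%), the interferon element GAAANNGAA (7.13%), the Egr motif GCGNGGGCG (4.70%) and the glucocorticoid core ACANNNTGT (5.84%) matched in 0 of the 8. The motifs did not overlap each other in these windows, and members with TATAAA moved in opposite directions or overlapped.

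Genes around the S100 and annexin proteins were followed through lists. Of 10 tested binding partners and receptors limma called 0, with 1 at an unadjusted p under 0.05. That gene, Plp2, which encodes a membrane protein, was at 10.65, 10.90 and 11.03 against 9.94, 10.11 and 10.56 (difference -0.66, SE 0.16, adjusted p = 0.066). Ahnak, the large scaffold protein that binds the complex of S100a10 and annexin A2, differed by -0.05 (SE 0.11, 8.67 against 8.62), and Myh9, the myosin heavy chain bound by S100a4, by -0.18 (SE 0.11). The formyl peptide receptor genes had no row with a symbol of their own and were not analysed here. Of 10 tested calcium sensors and calpains limma called 0, with 3 at an unadjusted p under 0.05, and 9 lay below 0 (46% of all tested genes). The median differences of these lists were -0.11 and -0.14. Ahnak, Plp2 and a gene of the calcium sensor list are counted again below, among the genes that accompany S100a4.

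Of 16 tested genes that accompany S100a4 in effector and memory T cells 4 fell and 0 rose. Over all tested genes 2.03% were called lower. The difference was below 0 for 15 of the 16, with a median of -0.29, beside 46% below 0 and a median of 0.02 over all genes. The 4 were the integrin gene Itgae (-1.18, SE 0.15, adjusted p = 0.0045), the chemokine receptor gene Ccr2 (-1.14, SE 0.16), Rora, a nuclear receptor gene (-0.60, SE 0.09), and Icos, a costimulatory receptor gene (-0.70, SE 0.13). These 4 had been known from earlier results to differ in these arrays when the list was made. The call count, the count below 0 and the median include them. Their distance from the values over all genes was therefore set in part by the choice of the list. The remaining 12 include the cytoskeletal gene Vim (-0.28, SE 0.10, adjusted p = 0.16), the galectin gene Lgals1 (-0.06, SE 0.09) and the integrin gene Itgb1 (0.24, SE 0.12), none past the threshold. The count was 3 without competent 1, competent 2 or deficient 1, 2 without deficient 2 (Itgae and Ccr2) and 5 without competent 3 or deficient 3. The myeloid markers had a median of 0.89, and with their mean as a covariate limma called 0 of the 16, with 7 lower at an unadjusted p under 0.05 (9 without it) and a list median of -0.32. How many of all tested genes reached that level with the covariate is not given here.

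Glucocorticoid-induced genes were followed because glucocorticoids induce Anxa1. Of 8 tested limma called 0, with 1 at an unadjusted p under 0.05, and the median was 0.14. Of the 8, 6 lay above 0, as did 8113 of all 15037 tested genes. The groups did not overlap for 2, both above (11.4% of all). Tsc22d3, a classical target, differed by 0.13 (SE 0.10, adjusted p = 0.53) and Dusp1, a phosphatase gene, by 0.48 (SE 0.13, adjusted p = 0.081). The receptor gene Nr3c1, counted in this list, differed by 0.01 (SE 0.10). The 2 genes below 0 were Fkbp5 (-0.09, SE 0.09) and Sgk1 (-0.27, SE 0.12).

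The genes with the nearest profile to S100a4 and Anxa1 were found by the root mean square difference of mean-centred log2 values over the 6 arrays. Nearest to S100a4 were Incenp (0.065), a chromosomal passenger gene, Matn2 (0.068), a matrilin gene, Prc1 (0.073), a spindle midzone gene, Pex7 (0.081), a peroxisomal import gene, and Ccnh (0.084), a cyclin gene. Their differences ran from -0.88 to -0.66. Nearest to Anxa1, at a larger distance, were the macrophage gene Cd68 (0.25), Ceacam15 (0.29), Gpr34 (0.29), Olfr99 (0.29) and Dnase1l3 (0.32). Cd68, also a myeloid marker here, was at 7.01, 7.70 and 7.20 in the competent and 8.43, 8.49 and 7.69 in the deficient arrays (difference 0.90, SE 0.23, adjusted p = 0.073). Nearness was not tested and is a description of 6 arrays.

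**Figure D5:**
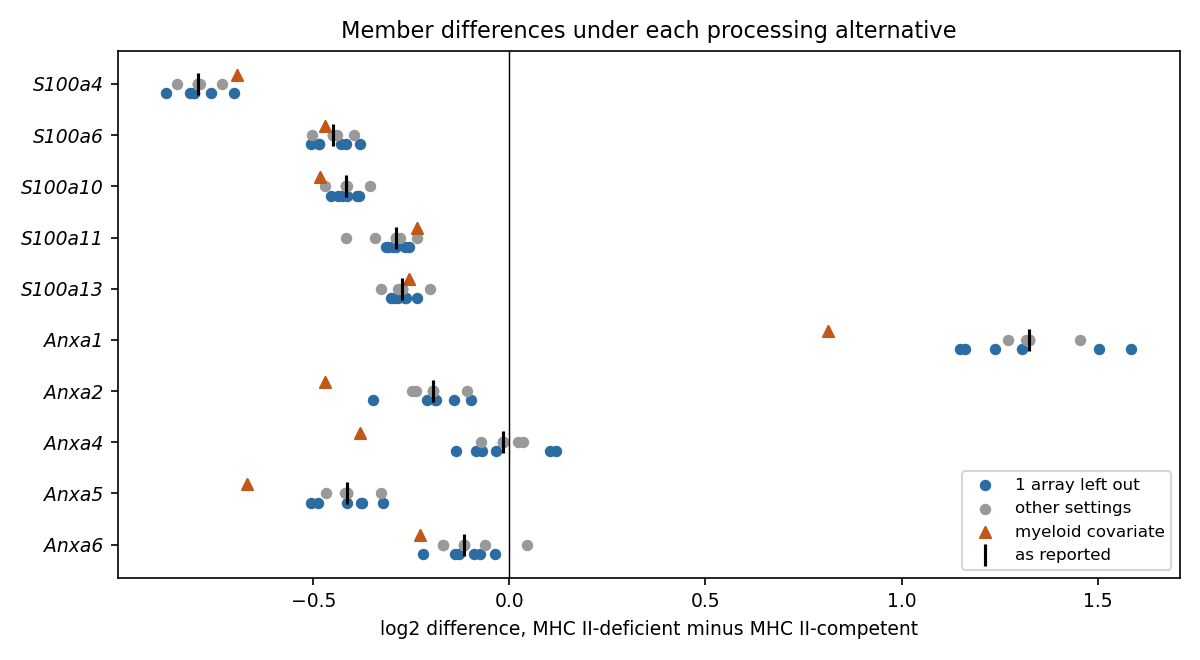
Log2 difference (horizontal axis) of each member as reported (black bar), with 1 array left out (blue), under the other settings (grey) and with the myeloid covariate (orange triangle). S100a4 and Anxa1 keep their side of 0 throughout, with Anxa1 between 0.81 and 1.59, and Anxa4 crosses 0.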

How the data were processed

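RNA of sorted CD4+ TCRβ+ CD25+ cells was measured on 6 arrays, 3 per recipient group. The authors ran affy and RMA, per the submitters' processing notes, which corrects background, sets arrays to a common distribution and gives 1 deposited log2 value per row and array. Software versions, annotation and build are not given in the sources used here. The log base is not stated and was taken as 2, since the 28101 values per array lie between 2.40 and 13.33. Array medians were 6.11 to 6.25. The scanner files were not used here, so signal over background per probe is unknown, and 3 arrays per group limit the precision.

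Platform symbols were updated by Entrez identifier with the GRCm38.p6 gene table. Of 28101 rows 21640 had 1 symbol, 1321 several and 5140 none, and only the first entered. The identifier was found for 21553, and 87 kept theirs. Each gene was represented by its row of highest mean, and 4900 of 19937 genes with a mean under 5.205, the 25th percentile of these rows, were left out. The other 15037 entered a linear model in limma 3.58.1 under R 4.3.3 (default eBayes prior, two-sided, no covariate, deposited values as they are), with Benjamini-Hochberg adjustment over all and a threshold of 0.05. The 10 members, the gene lists and the marker lists were chosen with earlier results of these data known. The named genes were all members, every tested gene of the other S100 and annexin lists, up to 6 called genes of each other list, some fixed genes and the 5 nearest profiles to S100a4 and Anxa1. Beyond this rule, Plp2, Vim, Lgals1, Itgb1, Myh9, Dusp1, Fkbp5, Sgk1, Tyrobp, Eomes, Prf1, Cd8b1, Nkg7 and S100a2 were picked with their values known. The fit was tested on simulated data before use. Alternatives were quantile normalization, median centring, other filters, the mean of a gene's rows, a trended robust prior, array weights, the replicate number as a block, the mean of the myeloid markers as a covariate, and leaving out each array. The alternatives for the companion list and Adgre1 were added after the data had been examined.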

Additional observations from a re-analysis of the deposited data

How the results depend on the processing

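Over 9 settings and 6 fits with 1 array left out, the 10 members gave 150 values, of which 124 kept direction and side of the threshold, 13 lost the call, 8 gained it and 5 turned their sign. The sign of Anxa4 turned with quantile normalization (0.023), array weights (0.034) and without competent 2 (0.10) or deficient 3 (0.12), and that of Anxa6 with the mean of its rows (0.044). The count of lower members, 2 as reported, was 1 with quantile normalization and with the replicate block, 4 with the mean of rows and with the trended robust prior, and 1 to 4 with 1 array left out. The count of higher members, Anxa1 alone, was 0 to 1 with 1 array left out. With the myeloid covariate limma called 0 lower and 0 higher members, and the members' median SE went from 0.11 to 0.17. At an unadjusted p under 0.05 were 6 of 10 members with the covariate and 7 of 10 without it. Without it, 1661 lower and 1181 higher of all 15037 tested genes were at that level. The count over all genes with the covariate is not given here, so the 6 have no background beside them. Over all genes that covariate left 92 calls, 71 of them among the 507, and leaving out 1 array gave 159 to 708. The cause of these changes was not tested. The replicate block gave 564 calls, 422 of them shared. Arrays of equal number did not deviate together (correlations of -0.03, -0.14 and 0.07 over genes), 1 of 3 competent arrays was closest to the deficient array of its number, and the labels do not say that numbers pair arrays. Signal over background per probe, which limits genes near the floor, was not analysed here.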
